A study of Arabidopsis thaliana with 20 samples.

Results

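The subject was the wild-type nucleosome landscape at differentially methylated regions (DMRs) of Arabidopsis thaliana, read from histone H3 coverage in Col-0 leaves. All windows of the 9 deposited Col-0 tables were used, 1 table for each combination of a methyltransferase mutant (drm2, met1 or cmt3) and a cytosine context (CG, CHG or CHH). They held 81944 DMR entries, which stood for 60945 distinct DMRs of 100 bp, each extended by 500 bp on both sides. Both libraries behind them, of the 20 in the series and the 14 with an H3 readout, were wild-type plants of the Columbia ecotype with no mutation or treatment. Their mature leaves were taken at 3.5 weeks and digested with micrococcal nuclease (MNase). H3-bound DNA was then immunoprecipitated and sequenced as 50 bp read pairs. The deposited tables give 1 combined profile for both replicates, so no value below has a replicate error and no difference was tested. Spread is given over the 5 chromosomes, which are regions of the same libraries and not replicates.

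A nucleosome is a histone octamer, which contains H3, wrapped by DNA, and MNase cuts the linker DNA between nucleosomes, so that the protected fragments mark nucleosome positions. In plants, cytosines are methylated in the contexts CG, CHG and CHH, where H is any base but G. MET1 maintains CG methylation, CMT3 is the main CHG methyltransferase and is guided to chromatin by methylated histone H3, and DRM2 acts in RNA-directed DNA methylation, which is best known for CHH methylation. Gene bodies carry mostly CG methylation, whereas transposons and the pericentromeres carry all contexts. A class is named here by the mutant and context in which its DMRs were listed. Whether methylation was lost or gained in a DMR is not given in the sources used here.

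The classes differed in size by orders of magnitude and shared members. The met1 tables listed 28608 CG, 4617 CHG and 19712 CHH DMRs. The drm2 tables listed 15257, 2145 and 6480 in the same order, and 189, 2960 and 1976 DMRs were listed for cmt3. Of the distinct DMRs 72.9% were in 1 class only and 21.9% in a pair of classes. DMRs lie on a 50 bp grid and cluster, so the 28608 met1 CG DMRs formed 14102 separate stretches and the 1976 cmt3 CHH DMRs formed 872.

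Coverage was uneven. Over the 21.9 Mb of distinct bases in all windows, the mean was 7.22 fragments per base, yet 54.3% of bases had no fragment. Stretches of coverage 1 between empty bases were read as single fragments. Among 5148 of them the median length was 158 bp, none was shorter than 121 bp and 4 were longer than 170 bp. The medians were 159 bp in arms and 158 bp in pericentromeres. Whether fragments were filtered by size is not given in the sources used here. A set of 41 drm2 CG windows within 10 kb of ribosomal RNA genes held 22.3% of that class's coverage, 4 drm2 CHG windows held 18.5% and 17 met1 CG windows 3.50%. Repeated ribosomal DNA cannot be assigned to a single copy. Without these windows mean coverage was 24.2 in drm2 CG DMRs and 11.8 in their flanks, and 36.4 and 20.1 for drm2 CHG, lower than the means over all windows given below.

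H3 coverage was highest in the DMRs themselves. The 4.54 Mb of distinct DMR bases had a mean of 16.1 fragments per base, with 32.2% of bases empty. Means in this paragraph include the windows near ribosomal RNA genes, which raise them. Bases 1 to 50 bp outside the nearest DMR had 9.19 fragments on average with 42.6% empty. In bins beyond 100 bp the mean lay between 3.47 and 4.52, and beyond 200 bp 64.5% to 67.9% of bases were empty. Coverage thus fell over about the length of 1 nucleosomal fragment and then levelled off. Input DNA and mappability were not examined here. Coverage, ratios and shares of empty bases were thus not separated from how well reads align, and this was not tested.

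Of the 9 classes 7 had a peak of H3 over the DMR, and the met1 CHH and cmt3 CHH classes had a nearly flat mean profile. The centre to flank ratio, which is mean coverage over the 100 bp DMR divided by that over the outermost 200 bp on each side of the window, described this. At drm2 CG DMRs mean coverage was 34.0 in the DMR and 14.6 in the flanks, a ratio of 2.33 (1.96 to 2.61 over the chromosomes). Without the windows near ribosomal RNA genes it was 2.06. At met1 CG DMRs the means were 22.1 and 10.7, with a ratio of 2.07 (1.93 to 2.25). The ranges of both classes over chromosomes overlapped. The cmt3 CG class had the highest ratio, 4.39, from means of 16.4 and 3.74. It rests on 189 DMRs and ranged from 2.44 to 6.76 over the chromosomes, the widest range of the 9 classes.

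The CHG classes had ratios below those of the CG classes of the same mutant in these means over all windows. Mean coverage was 47.7 in drm2 CHG DMRs and 26.1 in their flanks, a ratio of 1.83 (1.65 to 2.02). In met1 CHG DMRs it was 30.4 against 16.4, a ratio of 1.85 (1.64 to 2.03). In cmt3 CHG DMRs it was 16.9 against 10.2, a ratio of 1.66 (1.47 to 1.85). The ranges of the 3 CHG classes overlapped each other. With equal weight per window the ratios were 2.57 for met1 CHG and 2.55 for met1 CG, and 2.53 for drm2 CHG and 2.58 for drm2 CG, so the lower CHG ratio was lost for met1 and nearly so for drm2. The typical DMR was also well covered, with a median of 40.3 fragments per base for drm2 CHG, 28.6 for met1 CHG and 9.62 for cmt3 CHG.

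The 3 CHH classes were low in coverage and unlike each other in shape. Mean coverage at drm2 CHH DMRs was 3.86 against 1.63 in the flanks, a ratio of 2.38 (1.79 to 2.82). At met1 CHH DMRs it was 6.28 against 6.497, a ratio of 0.966 (0.865 to 1.08). At cmt3 CHH DMRs it was 5.08 against 4.53, a ratio of 1.12 (1.02 to 1.26). Median coverage of the DMR was 0.27 for drm2 CHH, 0.77 for met1 CHH and 2.935 for cmt3 CHH, against 6.36 to 40.3 in the CG and CHG classes. With every window given the same weight, which lowers the influence of highly covered windows, the met1 CHH ratio was 1.17 and so lay above 1.

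**Figure D1:**
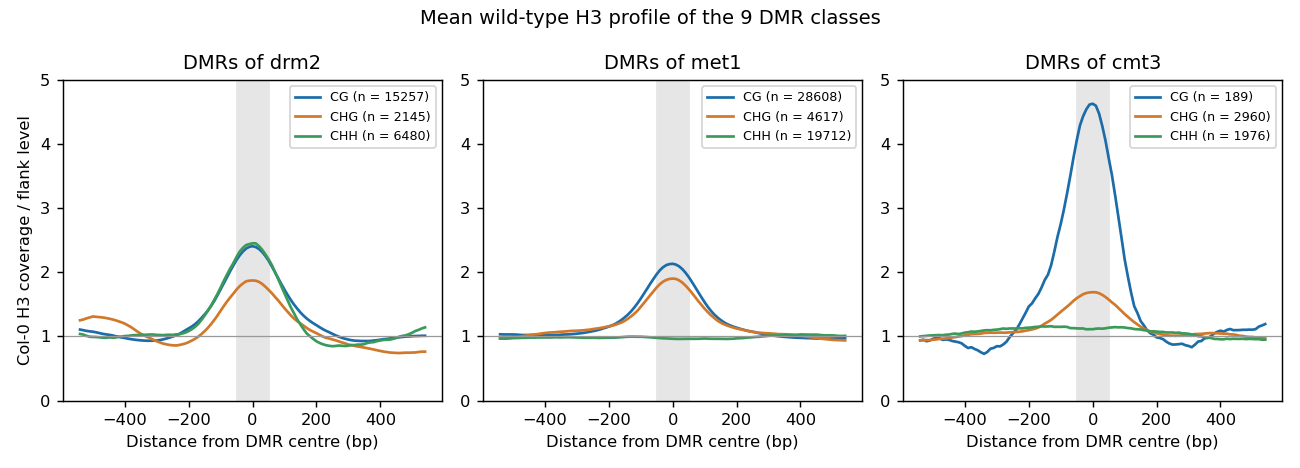
Mean Col-0 H3 coverage (vertical axis, divided by the mean of the outermost 200 bp on each side) against distance from the DMR centre in bp, for the DMRs of drm2, met1 and cmt3, with 1 line per context and the DMR shaded. The cmt3 CG line reaches 4.63 and the drm2 CG and CHH lines 2.40 and 2.45, whereas the met1 CHH and cmt3 CHH lines stay near 1; windows near ribosomal RNA genes are included.

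The peak was 179 to 211 bp wide and stood alone. Coverage counts whole fragments, with a median of 158 bp among single ones. Any enrichment over a 100 bp DMR would therefore appear about that wide or wider, so the width does not show how nucleosomes were arranged. Its full width midway between the flank level and the summit was 207 bp for drm2 CG, 196 bp for drm2 CHG, 199 bp for drm2 CHH, 200 bp for met1 CG, 199 bp for met1 CHG, 179 bp for cmt3 CG and 211 bp for cmt3 CHG. With equal weight per window the widths were 169 to 191 bp. Summits lay within 2 bp of the DMR centre in these 7 classes. None of the 7 had a further maximum between 100 and 300 bp from the centre, where neighbouring nucleosomes in fixed phase with the DMR would show. Shallow maxima in the flat classes, 126 bp to the left in met1 CHH (0.997 of the flank level) and 136 bp to the left in cmt3 CHH (1.16), were absent with equal weight.

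The autocorrelation within windows, averaged over the windows of each class, showed no regular spacing either. In windows with a mean coverage of at least 5, the autocorrelation of coverage fell through zero at a lag of 150 bp (cmt3 CG) to 171 bp (met1 CHH). It had no maximum between 120 and 250 bp in any of the 9 classes, nor in the arms or the pericentromeres of any class. For met1 CG it was 0.36 at 100 bp and 0.04 at 150 bp, and it was -0.09 at 200 bp. These values describe combined libraries of many leaf cells, in which arrays that differ between cells would average out. Arrays that differ in spacing between windows, or that lie in few windows, would average out as well.

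The highest position of a window was often inside the DMR for CG and CHG classes. In windows with a mean coverage of at least 5, it lay within 50 bp of the DMR centre in 26.5% of drm2 CG, 24.9% of met1 CG and 48.9% of cmt3 CG windows. For CHG the shares were 23.1% in drm2, 24.5% in met1 and 18.8% in cmt3, and drm2 CHH had 20.1%. The interval makes up 9.19% of a window. The met1 CHH share was 7.03% and the cmt3 CHH share 7.98%, both under the size of the interval. That size is not a strict reference, because maxima were not spread evenly. In met1 CHH the outermost 100 bp held 11.1% on the left and 12.3% on the right. In cmt3 CHH the share at 350 to 450 bp was 7.85%, close to that at the DMR. Even in the CG classes of drm2 and met1 most windows had their highest position outside this interval.

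Individual DMRs varied in both directions within every class. A DMR was counted as higher or lower when its coverage plus 1 differed at least 2-fold from that of its own flanks. Over all distinct DMRs 35% were higher and 18.3% lower. Higher DMRs made up 46.1% of drm2 CG, 45.2% of met1 CG and 56.1% of cmt3 CG, and lower ones 13%, 13.5% and 11.1%. In the CHG classes 45.5% (drm2), 46.7% (met1) and 39.5% (cmt3) were higher, while 6.43%, 10% and 15.3% were lower. The drm2 CHH class had 30.1% higher and 15.2% lower. In met1 CHH 20.9% were higher and 26.4% lower, and in cmt3 CHH 21.2% were higher and 23.5% lower, so these classes alone had more lower than higher DMRs. With the added 1, a DMR of low coverage can hardly reach the fold, which bears on the CHH classes most.

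The share of DMRs without a fragment at their central base was lowest for CHG and highest for CHH in each mutant. It was 3.50% in drm2 CHG (exact Clopper-Pearson 95% interval 2.76% to 4.36%), 8.23% in met1 CHG (7.45% to 9.06%) and 8.55% in cmt3 CHG (7.56% to 9.61%). It was 16.1% in drm2 CG (15.5% to 16.7%), 18.1% in met1 CG (17.7% to 18.6%) and 23.3% in cmt3 CG (17.5% to 29.96%). In the CHH classes it was 54.2% for drm2 (52.9% to 55.4%), 49.3% for met1 (48.6% to 50.0%) and 26.8% for cmt3 (24.8% to 28.8%). Within drm2 and within met1 the 3 intervals did not overlap, whereas for cmt3 the CG and CHH intervals overlapped. Among DMRs of no other class the met1 CHG share was 22.7%, close to the 23.9% of met1 CG, while drm2 kept its order with 1.73% (CHG), 19.6% (CG) and 65.2% (CHH). The intervals cover counting error only, treat overlapping DMRs as separate and ignore any difference between replicates.

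Flanks were emptier than the DMRs in every class. The share of flank bases without a fragment was 40.8% for drm2 CG, 24.4% for drm2 CHG and 79.6% for drm2 CHH. It was 44.2%, 32.3% and 58.9% for the met1 classes in the same order, and 57.4%, 22.7% and 36.9% for cmt3. In met1 CHH more DMRs than flank positions thus had some fragment, although mean coverage did not differ by more than its range over chromosomes. A pattern with fragments over the DMR and none in the flanks was found for 20.7% of drm2 CHH DMRs, compared with 8.45% of drm2 CG and 1.96% of cmt3 CHG. The reverse, an empty DMR between covered flanks, was found for 23.6% of drm2 CHH and 23.4% of met1 CHH DMRs and 1.96% of drm2 CHG DMRs. In drm2 CHH a further 24.2% had no fragment in either place.

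**Figure D2:**
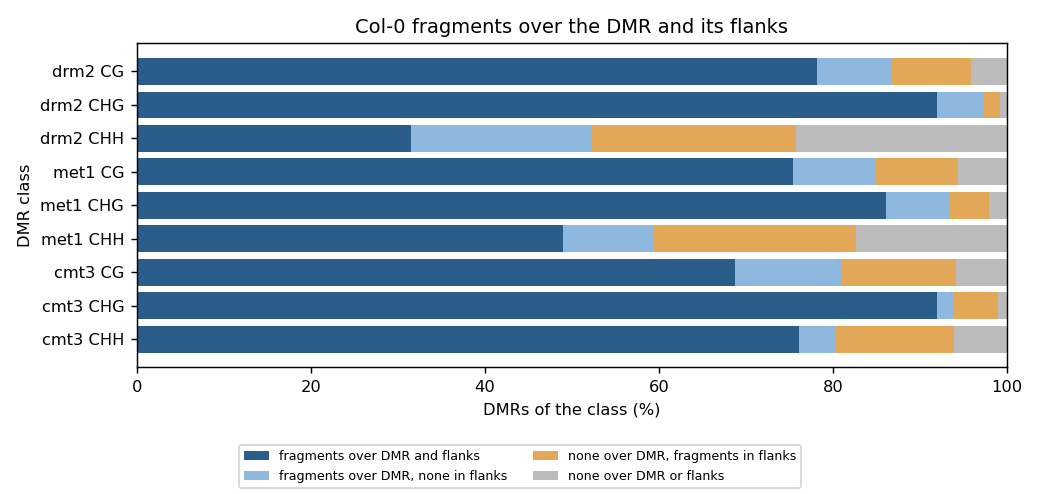
Share of the DMRs of each class (horizontal axis, percent) by whether Col-0 fragments covered any base of the DMR and any base of the outermost 200 bp on each side. Both were covered in 92.0% of drm2 CHG and 91.9% of cmt3 CHG DMRs, against 31.5% of drm2 CHH and 49.0% of met1 CHH DMRs.

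Pooled over all mutants, intervals listed for CHH alone were the only context group with a dip in mean coverage. Those listed only in met1 CHH or only in cmt3 CHH had the dip, whereas those of drm2 CHH did not, as given below. Each distinct 100 bp interval was assigned to the contexts under which it appeared in any of the 9 tables. The 28707 intervals listed for CG alone had a ratio of 2.23 (1.95 to 2.48 over the chromosomes). The 4144 listed for CHG alone had 1.63 (1.47 to 1.74). The 21886 listed for CHH alone had 0.829, with all 5 chromosomes between 0.781 and 0.892. These 3 ranges did not overlap each other. Intervals listed for both CG and CHG had 1.99, those for CG and CHH 1.77, those for CHG and CHH 1.54, and those for all contexts 1.99, so every combination with CG or CHG lay above 1.

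The dip at CHH-only intervals was one of depth and not of presence. Their mean coverage was 4.19 in the DMR and 5.05 in the flanks, but 53.4% had no fragment at the central base while 61.5% of flank bases were empty. With equal weight per window their ratio was 1.05, which reverses the direction. Among intervals with no other DMR of any class within 600 bp, the 1795 CHH-only ones had a ratio of 0.806, and 69.2% had no fragment at the central base. The 3161 CG-only ones had 2.87 and 35.9%, and the 422 CHG-only ones 2.03 and 22.7%. The order of the contexts in mean ratio was therefore the same with and without neighbouring DMRs.

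**Figure D3:**
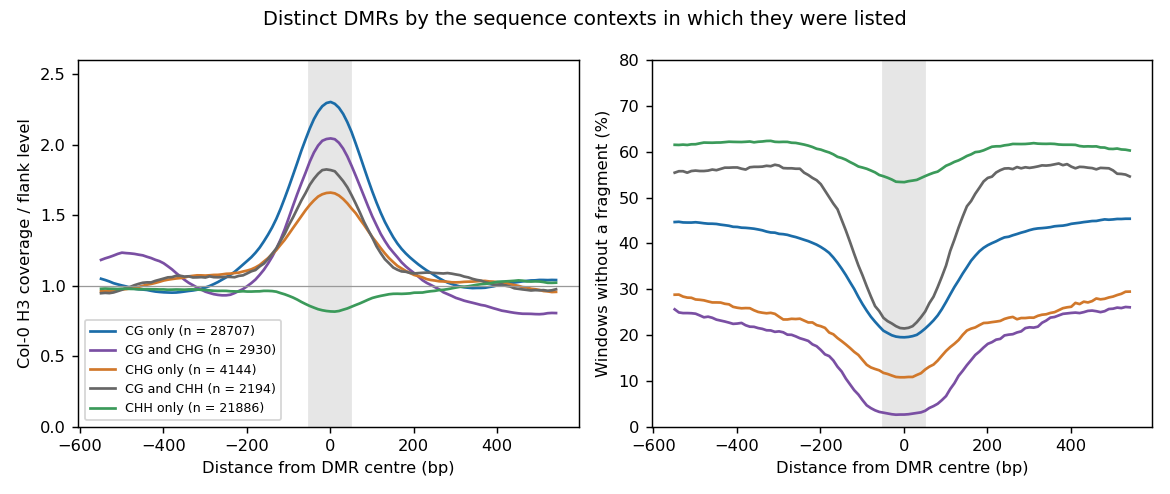
Distinct DMRs grouped by the contexts under which their interval was listed, against distance from the DMR centre in bp: mean Col-0 H3 coverage divided by the flank level (left) and percent of windows without a fragment (right). CHH-only intervals have a dip in mean coverage (ratio 0.829) while their share of empty windows is lower at the centre (53.4%) than in the flanks (61.5%); the left shoulder of the CG and CHG line includes windows near ribosomal RNA genes.

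CHH-only intervals were not uniform across mutants. Those listed only in met1 CHH (14941) had a ratio of 0.754 and those only in cmt3 CHH (1370) had 0.924. Those only in drm2 CHH (3198) had 1.57, and those in both drm2 and met1 CHH (2025) had 1.58, with mean coverage of 2.68 and 2.36 in the DMR. The drm2 CHH intervals were thus sparsely covered but still peaked. The highest ratio among the 20 most frequent combinations, 14.0, belonged to 193 intervals listed in drm2 CHH and met1 CG, where coverage was 13.1 in the DMR and 0.932 in the flanks. When DMRs overlapping any DMR of another class were left out, the drm2 CHH ratio was 1.201 and the cmt3 CHH ratio was 0.831, on the other side of 1 from its value over all members.

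Ratios were lowest in the most crowded windows of drm2 CG, met1 CG and met1 CHG, those with 7 or more other DMRs of the class. Other DMRs can lie in the flanks of such windows, so the ratio there partly compares DMRs with DMRs. For met1 CG, DMRs with no other DMR of the class in their window had coverage of 10.1 in the DMR and 3.63 in the flanks, a ratio of 2.79. Those with 7 or more others had 33.8 and 24.4, a ratio of 1.38. For drm2 CG the corresponding ratios were 2.99 and 1.27, and for met1 CHG 2.79 and 1.28. With 1 to 2 others the ratio was not lower in the CG classes, at 3.18 for met1 CG, 3.13 for drm2 CG and, for cmt3 CG, 5.35 against 3.71 with none. The share of met1 CG DMRs without a central fragment was 36.8% with no other DMR and 5.35% with 7 or more. The met1 CHH ratio stayed between 0.927 and 1.01 over the same groups.

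Gene overlap differed between classes. Overlaps were taken from the RefSeq annotation of assembly TAIR10.1. Protein-coding genes overlapped 56.6% of cmt3 CG DMRs, 22.2% of drm2 CG, 12.4% of met1 CG and 6.96% of cmt3 CHG. Annotated pseudogenes overlapped 76.7% of cmt3 CHG, 66.1% of cmt3 CHH, 62.2% of drm2 CHG and only 4.04% of drm2 CHH. All entries labelled as any kind of pseudogene were counted, and transposon genes among them were not told apart. The cmt3 CG class thus had the highest share in genes, on 107 DMRs, against 3556 in met1 CG. At drm2 CG DMRs the ratio was 3.05 inside protein-coding genes and 2.21 outside, with medians in the DMR of 7.33 and 20.8. At met1 CG DMRs it was 2.72 inside and 2.01 outside, with medians of 6.99 and 11.5. At cmt3 CG DMRs the order was the opposite, 4.05 inside and 4.72 outside, on 107 and 82 DMRs. Gene overlap went with chromosome region. Protein-coding genes overlapped 53.2% of drm2 CG DMRs in arms and 8.80% in pericentromeres, and 31.0% and 7.34% of met1 CG DMRs. Gene overlap and region were not separated here.

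In the CG and CHG classes, DMRs in pericentromeres had higher mean and median coverage than DMRs in arms. Except in cmt3 CG, the mean coverage of their flanks differed more than that of their centres. A DMR was called pericentromeric within 3 Mb of the centromere, placed at the rounded positions 15, 3.6, 14, 4 and 12 Mb of chromosomes 1 to 5. Over all windows the mean coverage was 9.50 in pericentromeres and 4.12 in arms, with 46.4% and 65.0% of bases empty. Inside DMRs the means were 19.9 and 9.41. Both pairs of means include the windows near ribosomal RNA genes, and no values without them were computed here. Median coverage of the DMR was 22.4 in pericentromeres and 7.39 in arms for drm2 CG, 14.3 and 4.06 for met1 CG, 32.9 and 13.1 for met1 CHG, and 1.53 and 0.12 for met1 CHH. It differed little for cmt3 CHH (3.01 and 2.89), and for drm2 CHH it was 0.10 and 0.37. The 2 median values of drm2 CHH lie far below 1 fragment per base. For cmt3 CG the medians were 10.6 and 6.36, on 60 and 129 DMRs. They had the opposite order on chromosomes 4 (1.66 and 4.02) and 5 (1.52 and 4.22). Medians also turned on chromosome 4 for cmt3 CHG (10.71 and 11.33) and on chromosome 1 for drm2 CHG (41.8 and 42.5).

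The centre to flank ratio was lower in pericentromeres than in arms for 8 of the 9 classes. For met1 CG it was 1.99 in 22461 pericentromeric DMRs and 2.65 in 6147 arm DMRs, a log2 difference of -0.41 (-0.58 to -0.21 over the chromosomes). Mean coverage of the DMR was 1.56 times as high in pericentromeres and that of the flanks 2.08 times. For met1 CHG it was 1.77 against 2.54, a log2 difference of -0.52 (-1.04 to -0.14). For cmt3 CHH it was 0.928 against 1.18, a log2 difference of -0.35 (-0.49 to -0.13). In these 3 classes all 5 chromosomes had the lower ratio in the pericentromere.

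The other classes were less even. The log2 difference was -0.29 for drm2 CG, -0.08 for drm2 CHG, -0.32 for met1 CHH and -0.09 for cmt3 CHG, each with 4 of 5 chromosomes lower. For drm2 CHH it was -0.24 with 3 of 5 lower. For cmt3 CG it was 0.23, from ratios of 4.85 and 4.14 on 60 and 129 DMRs, and 1 of 5 chromosomes was lower. The differences of drm2 CHG, drm2 CHH, cmt3 CG and cmt3 CHG lay within their standard deviations over chromosomes, which were 0.28, 0.50, 0.98 and 0.20 on the log2 scale. Crowding moved with region as well. Of met1 CG DMRs, 9.85% in pericentromeres and 18.3% in arms had no other DMR of the class in the window, and among these the ratios were 2.77 and 2.85, a log2 difference of -0.04. For met1 CHG the ratios among such DMRs were 2.62 and 3.73, so a difference was left there. Among such DMRs the log2 difference was 0.00259 for met1 CHH and -0.20 for cmt3 CG, which turns the sign of both. The drm2 CHG difference turned to 0.31 among DMRs of no other class and to 0.01 with flanks of 300 bp, so the count of 8 classes depends on these settings.

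**Figure D4:**
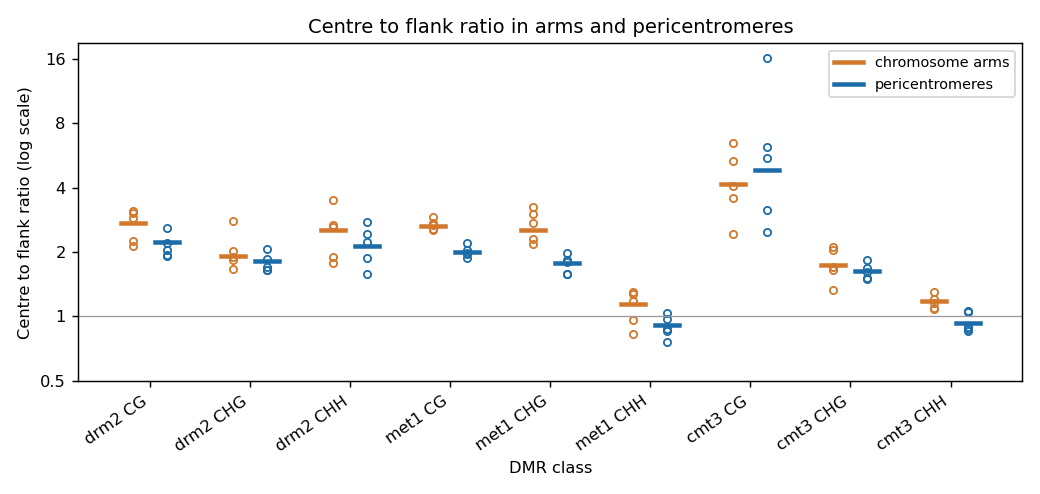
Centre to flank ratio of Col-0 H3 coverage (vertical axis, log scale) for each DMR class in chromosome arms and pericentromeres; circles are the 5 chromosomes and bars are all DMRs of the region. The bars of met1 CG stand at 2.65 and 1.99 and those of met1 CHG at 2.54 and 1.77, whereas the cmt3 CG circles spread from 2.42 to 16.2.

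Contexts over all mutants were compared in the same way. CG-only intervals had a ratio of 2.69 in arms and 2.14 in pericentromeres, and CHG-only intervals 1.77 and 1.59. Among intervals with no other DMR of any class within 600 bp the ratios were 3.33 and 2.62 for CG-only but 1.97 and 2.04 for CHG-only, where the direction turned. CHH-only intervals had 0.972 in arms and 0.765 in pericentromeres, so the dip in mean coverage, which is absent with equal weight per window, was deeper near the centromeres. Their median coverage was 0.05 in arms and 0.92 in pericentromeres. The share without a central fragment was 58.1% and 47.8% for CHH-only and 26.2% and 17.2% for CG-only intervals. Pooled over mutants, both groups were thus emptier in the arms. Not every class was. The shares in arms and pericentromeres were 53.3% and 55.7% for drm2 CHH, 20.2% and 30% for cmt3 CG, and 8.51% and 8.56% for cmt3 CHG. All remaining classes had the higher share in arms.

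Coverage at met1 DMRs was higher near the centromere. At met1 CG DMRs mean coverage in the DMR was 27.9 within 1 Mb, 17.5 at 2 to 3 Mb, 11.7 at 5 to 8 Mb and 8.11 at 12 to 20 Mb. Their flanks had 13.3, 8.59, 3.83 and 2.53. The ratio was 2.09, 2.04, 3.05 and 3.20 in these bins, and over all bins it was 1.87 to 2.09 within 3 Mb and 2.40 to 3.52 beyond. The share of met1 CHH DMRs without a central fragment was 37.1% within 1 Mb and 65.1% at 12 to 20 Mb. For drm2 CHH it was 60.3% within 1 Mb (184 DMRs) and 48.4% at 12 to 20 Mb, the opposite order for these end bins. In the bins between them it was 52.7% to 56.4%, with no order by distance. At drm2 CG DMRs mean coverage, which includes windows near ribosomal RNA genes, was not ordered by distance. It was 54.5 within 1 Mb, 21.3 at 2 to 3 Mb, 43.6 at 3 to 5 Mb and 18.0 at 5 to 8 Mb. The median in the DMR was 27.1, 13.4, 11.3 and 7.51 in the same bins. By the median, drm2 CG DMRs were thus also more covered near the centromere. The cmt3 CHG class had a median in the DMR of 10.9 within 1 Mb and 7.13 at 12 to 20 Mb (33 DMRs), with ratios of 1.49 and 2.76. However, its median was 11.1 at 5 to 8 Mb and its ratio 1.49 at 8 to 12 Mb, so neither was ordered by distance.

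**Figure D5:**
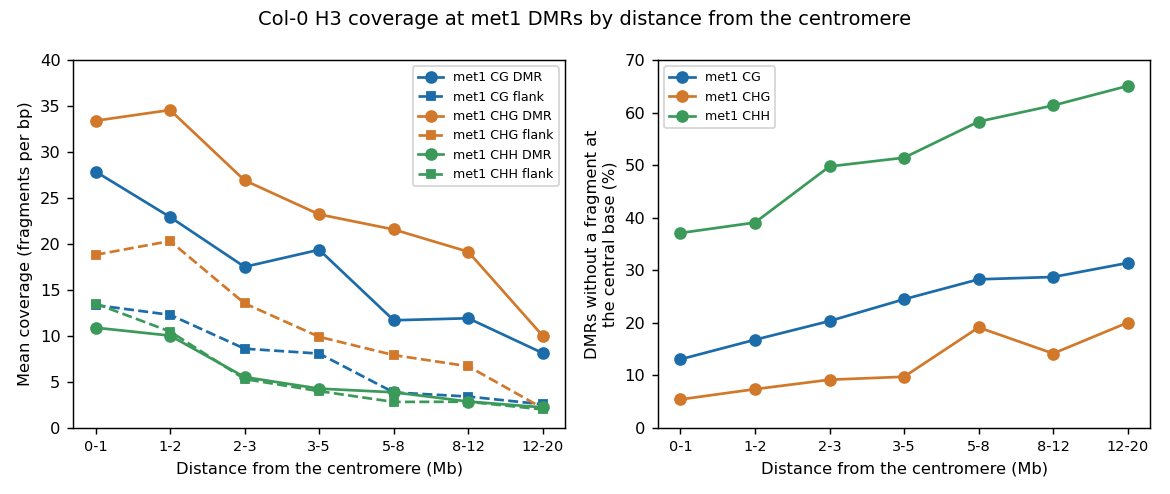
Mean Col-0 H3 coverage in fragments per bp over met1 DMRs (solid) and their flanks (dashed) at left, and percent of DMRs without a fragment at the central base at right, against distance from the centromere in Mb (bins of unequal width). At CG DMRs coverage is 27.9 within 1 Mb and 8.11 at 12 to 20 Mb, and the CHH share without a fragment is 37.1% and 65.1% in the same bins.

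The ends of the range were taken by a few single DMRs, chosen on the values they show. They were picked in each class as the DMR with the largest and with the smallest log2 ratio of coverage plus 1 to flank plus 1, among windows with a mean coverage of at least 10. In drm2 CG the highest was chr5:3253151-3253250 (TAIR10) within the protein-coding gene AT5G10340, with a coverage of 2059 in the DMR and 0 in the flanks. Its central base had 2113 fragments, while 60.3% of its window was empty. The highest cmt3 CG DMR, chr1:4561401-4561500 in the gene AT1G13310, had 68.2 in the DMR and 0.81 in the flanks. The highest cmt3 CHH DMR, chr1:5692201-5692300 in the pseudogene AT1G16660, had 60.5 and 1.49 and was listed in 5 classes. Its window was covered more widely, with 16.5% of positions empty against 64.9% in the cmt3 CG window.

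The highest met1 CG DMR, chr2:3303801-3303900, overlapped the tRNA gene AT2G07754 and the protein-coding gene AT2G07774, with 167 in the DMR and 0.03 in the flanks. The highest met1 CHG DMR, chr2:3319951-3320050, lay between AT2G07631 and AT2G07632, with 112 and 0. Chromosome 2 carries a large insertion of mitochondrial DNA beside its centromere, and reads from such copies cannot be assigned to a single place. Whether either DMR lies in that insertion was not tested. At the other end, the lowest met1 CG and met1 CHG DMRs were neighbours, chr3:15037351-15037450 and chr3:15037251-15037350, between the pseudogenes AT3G42993 and AT3G42996. Both had no fragment over the DMR, with flank coverage of 53.7 and 51.7. The lowest drm2 CG DMR, chr4:3708951-3709050 in the pseudogene AT4G06608, likewise had 0 between flanks of 56.9 and 70.3.

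The highest met1 CHH DMR, chr5:18420901-18421000 between AT5G45460 and AT5G45472, had 59.1 in the DMR and 0 in the flanks. The lowest, chr2:7190551-7190650, had 0.95 in the DMR, 0 on the left and 388 on the right, and so sat at the foot of a one-sided pile of fragments. The lowest drm2 CHH DMR, chr5:2560051-2560150 beside the flavonoid 3′-hydroxylase gene TT7 (AT5G07990), was one-sided as well, with 0.33 on the left and 74.96 on the right. The highest drm2 CHH DMR, chr1:14307051-14307150 between the pseudogenes AT1G38140 and AT1G38149, had 67.5 and 0, and was also listed in drm2 CG, met1 CG and met1 CHH. The lowest cmt3 CG DMR, chr5:2346401-2346500 in AT5G07410, had 2.70 in the DMR and 21.7 in the flanks, the mildest of the 9 lowest. In the remaining named DMRs, those of drm2 CHG and cmt3 CHG and the lowest of cmt3 CHH, the higher side had 27.8 to 59.0 and the lower side 0.115 or less.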

How the data were processed

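MNase-H3-ChIP-seq libraries of 2 Col-0 replicates were analysed. Per the submitters' processing notes the series used Bowtie2, Picard, Bismark and methylKit with build TAIR10; which settings, fragment filter and DMR thresholds applied is not given in the sources used here. The deposited signal is coverage in whole fragments per base, which the authors combined over both replicates, with no normalization found. Each window of 1100 bp has 1099 values, so positions may be off by 1 bp. Depth of the single libraries is unknown.

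Ratios, widths after a 21 bp running mean, autocorrelations and exact intervals were computed with Python 3.11.15, numpy 2.4.6, pandas 2.3.3 and scipy 1.17.1, and figures were drawn with matplotlib 3.10.9. The code was tested on simulated windows. A pseudocount of 1 was used for single DMRs. In each class the DMRs with the largest and smallest log2 value were named, leaving out any that overlapped one already named. Members, classes and comparisons were chosen with earlier results of these data known. Alternatives covered flank width, weighting, the highest windows, overlapping and shared DMRs, the pericentromere border, minimum coverage and chromosomes. No genome sequence was used here, so base composition was not computed. RefSeq TAIR10.1 supplied gene overlaps.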

Additional observations from a re-analysis of the deposited data

How the results depend on the processing

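All results rest on 1 combined profile, so replicate error is unknown. No paired analysis was possible because the tables hold no column per replicate, and leaving out a replicate could not be run for the same reason. Leaving out each chromosome in turn kept every centre to flank ratio within its spread over chromosomes. The alternatives of DMRs with no other DMR of the class in the window and of removing windows near ribosomal RNA genes, were chosen after seeing the data. Low coverage limits the CHH classes most. The causes of the shifts below were not tested.

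The cmt3 CHH ratio (1.12) fell below 1 for DMRs at least 1100 bp apart (0.999), in no other class (0.831) or with no neighbour (0.914). With windows weighted equally the ratio was 2.53 for drm2 CHG, 2.55 for met1 CG, 2.57 for met1 CHG and 1.17 for met1 CHH. For DMRs at least 1100 bp apart it was 2.52 for met1 CG, 2.21 for met1 CHG, 2.65 for drm2 CG and 1.91 for drm2 CHH. For DMRs of no other class it was 1.201 for drm2 CHH, 1.55 for met1 CHG, 0.657 for met1 CHH and 1.51 for cmt3 CHG, and cmt3 CG had no such DMR. With no neighbour of the class it was 2.99 for drm2 CG, 1.58 for drm2 CHG, 1.54 for drm2 CHH and 2.79 for both met1 CG and met1 CHG. For drm2 CG it was 2.05 without the highest 1% of windows and 2.06 without windows near ribosomal RNA genes.

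The log2 difference between pericentromeres and arms moved for drm2 CHG to -0.43 (equal weight), -0.40 (1100 bp apart), 0.31 (no other class) and -0.68 (no neighbour). For met1 CG it was -0.19 (no other class), -0.24 and -0.66 (borders at 2 and 5 Mb) and -0.037 (no neighbour). With no neighbour it was -0.83 for drm2 CHH, 0.00259 for met1 CHH and -0.52 for cmt3 CHH. For cmt3 CHH it was -0.071 with equal weight and -0.51 at a mean coverage of at least 5.

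The share without a fragment for DMRs at least 1100 bp apart was 20.8%, 5.66% and 58.2% (drm2 CG, CHG, CHH), 26.6%, 12.6% and 56.3% (met1), and 10.96% and 37.5% (cmt3 CHG, CHH). For DMRs of no other class it was 19.6%, 1.73% and 65.2% (drm2), 23.9%, 22.7% and 56.9% (met1) and 10.7% (cmt3 CHG). Counting DMRs empty over all 100 bp gave 13.4%, 2.75% and 47.8% (drm2), 15.1%, 6.61% and 40.7% (met1), and 6.11% and 19.6% (cmt3 CHG, CHH). Leaving out a chromosome gave 17.9% to 18.6% for met1 CG, 48.6% to 50.5% for met1 CHH and 24.1% to 28.9% for cmt3 CHH.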
